A study of Saccharomyces cerevisiae with 6 samples.

Results

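The 60 budding yeast genes described here encode protein subunits of the spliceosome and the nuclear cap-binding complex. They were chosen by name, and a feature was taken as a member when its annotated gene symbol equalled one of the 60. All 60 genes were found, on 73 of the 7680 array features, 13 of them on 2 features each and 47 on 1. The wider table names 5583 genes. RNA came from cells of the temperature-sensitive yra1-1 mutant and from Yra1 wild-type cells, both at 37 °C, which is non-permissive for the mutant. The labels name no other allele, give no strain background, and do not say how long the cells were held at 37 °C. Each of 6 two-colour arrays set total RNA of the mutant directly against total RNA of the wild type. Arrays 1, 4 and 6 had the mutant RNA in channel 1, while arrays 2, 3 and 5 had it in channel 2. Whether separate cultures were used is not in the labels, so p-values cover no more than the variation among the arrays, and that variation may be technical. An added prefix of unknown meaning, mex, opens the title of array 1. In bulk RNA, fewer cells and less RNA per cell cannot be told apart.

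The spliceosome removes introns from pre-mRNA. The U1 particle recognises the 5′ splice site, the U2 particle pairs with the branch point, and the U4/U6.U5 tri-snRNP joins before RNA helicases rearrange the complex for catalysis. Rings of Sm and Lsm proteins hold the small nuclear RNAs, and the Prp19 complex stabilises the activated spliceosome. Yra1 is an mRNA export adaptor that works with Sub2, a helicase which also acts in early spliceosome assembly. The YRA1 gene itself carries an intron, and the level of its mRNA is known to be regulated through that intron.

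Values are log2 ratios centred on the median of each array, and no source used here gives the channel in the numerator. Shifts are therefore reported in a pair of readings of one limma fit over all 7680 features. The turned reading flips the sign of arrays 2, 3 and 5, so its positive side means higher in yra1-1 if channel 1 was divided by channel 2, and higher in wild type if they are the inverse. In the reading as deposited all columns keep their sign, so its positive side means higher in yra1-1 only if the submitters had already put the mutant in the numerator of every array. Since the direction is not settled, results are given as a positive and a negative side. A feature passed when its Benjamini-Hochberg adjusted p over all features was below 0.05.

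Array 1 stood apart from the rest for genes that mark the strains. YRA1 lay at −1.39, 1.21 and 1.00 on arrays 1, 4 and 6 and at 3.07, 1.64 and 3.49 on arrays 2, 3 and 5, as deposited. TRP1 and URA3, nutritional marker genes, also had array 1 alone on its side of 0. Feature identifiers were read as following the layout of the slide, which no source used here gives. Features 1 identifier apart correlated at 0.416 to 0.523 within an array and features 20 apart at 0.362 to 0.447. For features 3000 apart it was −0.054 to 0.026. Nearby identifiers can also hold genes close on a chromosome, such as PRP43 and CWC23. Place on the slide and gene order were not separated. Many of the results are therefore also given without array 1 and after a neighbourhood correction, which subtracts the median of the nearby features.

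As a group, the splicing factor genes stayed close to the middle of the arrays. Their median was 0.25, −0.04 and 0.26 on arrays 1, 4 and 6, and −0.30, −0.11 and −0.09 on arrays 2, 3 and 5. The spread between members was as wide as between all features, with an SD across member features of 0.89 to 1.40 log2 units per array against 0.99 to 1.43. In the turned reading the median shift of the 73 features was 0.09, against 0.04 for all features, and 43 lay on the positive side (58.9%, background 53.5%) and 30 on the negative side (background 46.4%). In the columns as deposited it was −0.05, against 0.02 for all features, and 33 lay on the positive side (background 51.5%) and 40 on the negative side (54.8%, background 48.5%). The SE of a single member's shift was 0.304 to 0.688, with a median of 0.362.

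**Figure D1:**
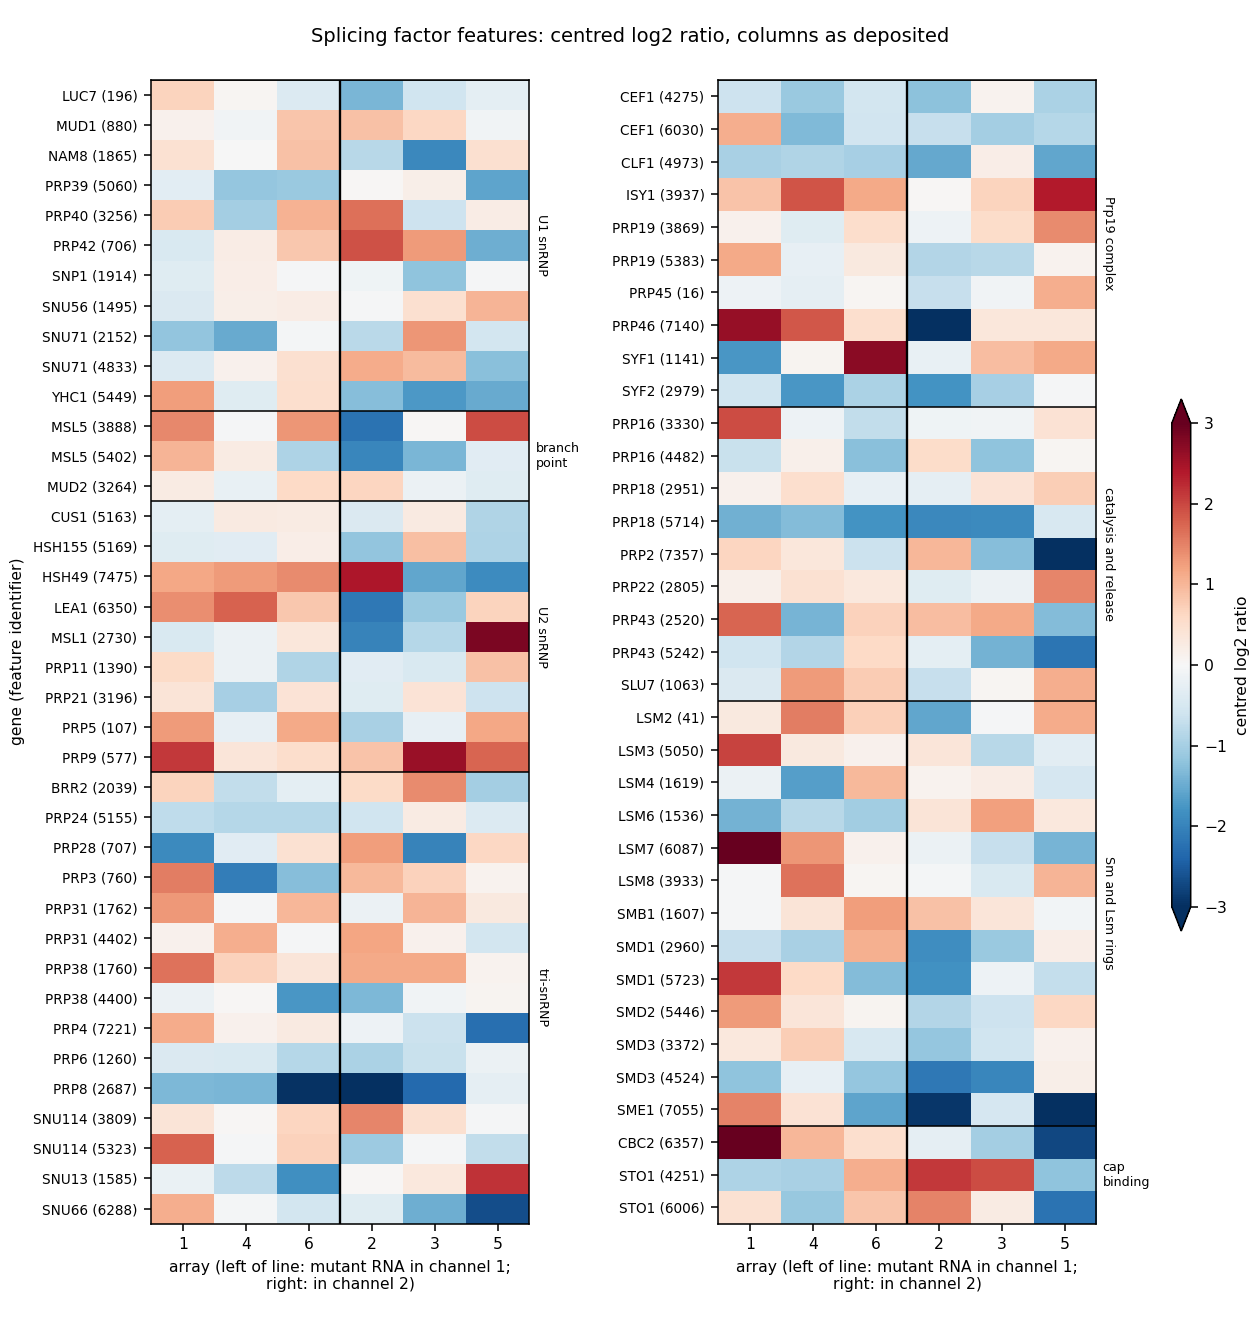
Centred log2 ratio of each of the 73 splicing factor features (rows, grouped by role, feature identifier in brackets) on the 6 arrays (columns, as deposited). Arrays 1, 4 and 6 carry the mutant RNA in channel 1 and stand left of the line, and arrays 2, 3 and 5 stand right of it. PRP8 and PRP18 feature 5714 are blue on all 6 arrays and PRP9 is red on all 6, while most rows mix both colours.

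No member passed in the turned reading and 1 passed in the columns as deposited. In simulated data 0% of features given a turned shift of 1 log2 unit passed, and 71% of those given 2. A member with a shift of about 1 would therefore be missed. In the turned reading the count was 0 of 73 (background 0.013%), and 8 had an unadjusted limma p under 0.05 (11.0%, background 13.0%), 6 of them on the positive side (background 7.51%) and 2 on the negative side (background 5.48%). As deposited, the 1 member that passed was PRP18 feature 5714 (1.37%, background 1.65%). It lay on the negative side (background 1.08%), with 0 on the positive side (background 0.573%). A further count, at an unadjusted p under 0.05, gave 11 features (15.1%, background 13.5%), 3 on the positive side (background 6.13%) and 8 on the negative side (background 7.33%). A turned value of the same sign on all 6 arrays was seen for 5 features (6.85%, background 7.28%): CBC2, LSM7 and PRP4 on the positive side (background 2.98%), and LSM6 and SNU13 on the negative side (background 4.31%). As deposited, 7 features kept 1 sign throughout (9.59%, background 8.09%), namely PRP9, ISY1 and PRP38 feature 1760 on the positive side (background 4.06%) and PRP8, PRP18 feature 5714, SYF2 and PRP6 on the negative side (background 4.03%). These shares are near those of all features.

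**Figure D2:**
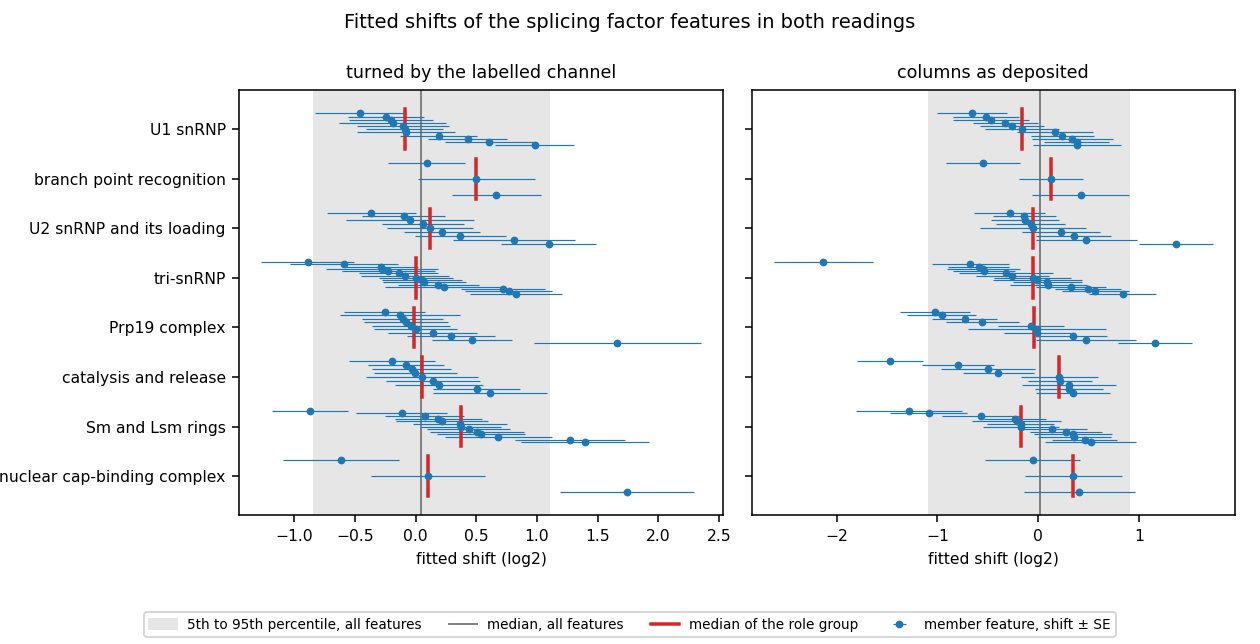
Fitted shift (log2) of each splicing factor feature with its SE, by role group, in the turned reading (left) and in the columns as deposited (right). Blue points are features, red bars are group medians, the grey band spans the central range of all features between the percentiles given in the legend and the grey line is their median. CBC2 (1.74) stands out on the left, and PRP8 (−2.13) and PRP18 feature 5714 (−1.47) on the right.

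The turned shift of a member moved with its feature identifier. Across the 73 features Pearson's r between identifier and turned shift was 0.587 and Spearman's rho 0.569, against 0.364 and 0.351 across all 7680 features. Features of nearby identifiers were correlated within an array, so these are descriptions with no test. Among identifiers 5761 to 7680, all 11 member features lay on the positive side with a median of 0.83, where 77.2% of all features did so with a median of 0.44. Among identifiers 1 to 1920, 10 of 22 members lay on the positive side (background 44.2%). Their median was −0.10, against −0.06 for all features there. All 6 features on the positive side with an unadjusted p under 0.05 had identifiers between 5449 and 7140: CBC2, PRP46, SME1, LSM7, LEA1 and YHC1. Both on the negative side, SNU13 and LSM6, had identifiers 1585 and 1536. The identifiers of all features with such p-values were not counted. After the neighbourhood correction r was 0.339 over the members, and it was not computed over all features. In that setting 1 member on each side had an unadjusted limma p under 0.05. Of all 7680 features, 244 did so on the positive and 433 on the negative side, against 577 and 421 before the correction. As deposited the trend was weaker, with r = −0.268 over the members and −0.131 over all features.

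**Figure D3:**
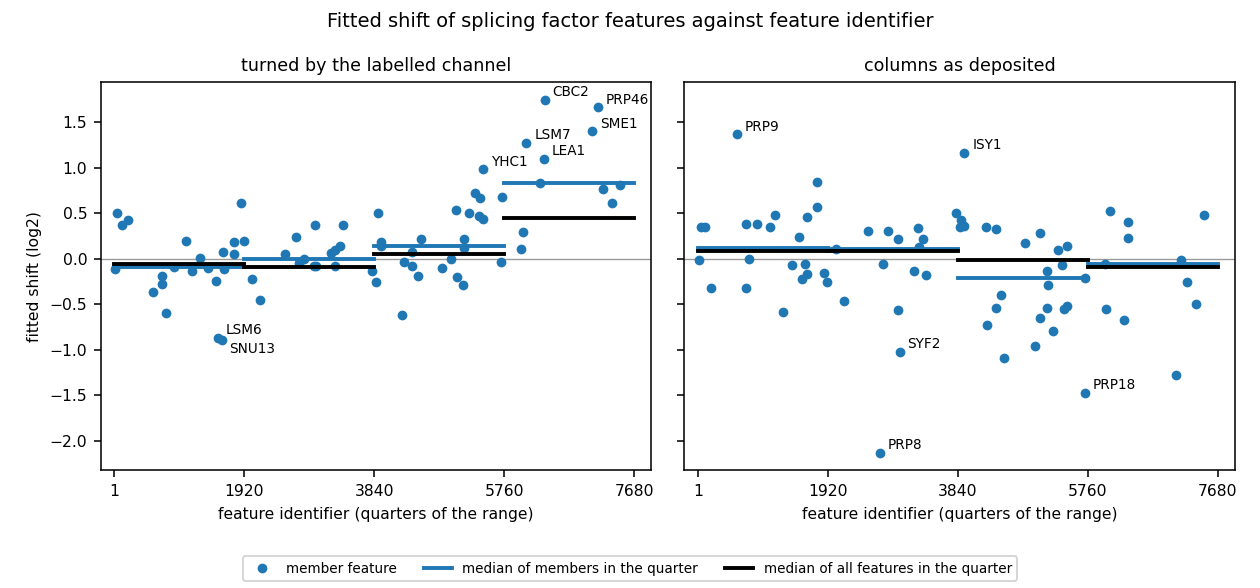
Fitted shift (log2) of each splicing factor feature against its identifier, read here as following the slide layout, in the turned reading (left) and as deposited (right). Bars are medians over 4 equal ranges of identifiers, blue for members and black for all features. On the left the members' bar lies at −0.10 in the lowest range and 0.83 in the highest, and that of all features at −0.06 and 0.44.

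Among the 11 features of the U1 particle, none passed in either reading. Their median was −0.09 turned and −0.16 as deposited, and turned it was 0.39 within day 1 (arrays 6 and 5) and −0.24 within day 4 (arrays 1 and 3), days being read from the codes in the titles. The smallest turned p belonged to YHC1, which encodes a U1 zinc-finger protein that contacts the 5′ splice site duplex. It lay at 1.25, −0.37 and 0.50 on arrays 1, 4 and 6 and at −1.27, −1.73 and −1.50 on arrays 2, 3 and 5. The arrays of either assignment did not overlap, and the turned shift was 0.98 ± 0.33 (SE, 6 arrays, limma adjusted p = 0.275). Without array 1 it was 0.78 and after the neighbourhood correction 0.51. How many of all features separated without overlap was not counted. The members described so, here and below, were picked for a small turned p, which favours such separation. PRP39, a U1 scaffold subunit, had the smallest p as deposited. It lay at −0.31, −1.16 and −1.12 on arrays 1, 4 and 6 and at 0.03, 0.18 and −1.58 on arrays 2, 3 and 5, so 4 of 6 arrays were negative (−0.66 ± 0.35, limma adjusted p = 0.473). The remaining subunit genes were SNP1 and MUD1 (RNA-binding proteins of U1), NAM8, PRP40, PRP42, LUC7, SNU56 and SNU71. These had turned shifts from −0.46 for SNU71 feature 2152 to 0.61 for NAM8, and shifts as deposited from −0.47 to 0.39.

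The branch point is first bound by Msl5, the yeast branch point bridging protein, with its partner Mud2. Both features of MSL5 lay on the positive side of the turned reading. Feature 5402 lay at 1.03, 0.24 and −0.93 on arrays 1, 4 and 6 and at −1.95, −1.37 and −0.33 on arrays 2, 3 and 5. The assignments overlapped through array 6, and the turned shift was 0.66 ± 0.37 (limma adjusted p = 0.494). The other feature, 3888, had a turned shift of 0.50 ± 0.48. As deposited they lay on opposite sides, at −0.55 and 0.42. MUD2 was near 0 in both readings, at 0.09 turned and 0.13 as deposited.

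U2 particle genes had a median of 0.12 turned and −0.055 as deposited over 9 features. LEA1, which encodes a leucine-rich repeat protein of U2, lay at 1.40, 1.76 and 0.81 on arrays 1, 4 and 6 and at −2.14, −1.12 and 0.66 on arrays 2, 3 and 5. All 3 arrays with the mutant in channel 1 were above the other 3, and the turned shift was 1.10 ± 0.39 (limma adjusted p = 0.291). It was 0.07 within day 1, 1.26 within day 4 and 0.28 after the neighbourhood correction. PRP9, an SF3a subunit needed to load U2, was positive on every array as deposited. Its values were 2.11, 0.36 and 0.52 on arrays 1, 4 and 6 and 0.85, 2.59 and 1.75 on arrays 2, 3 and 5. The shift was 1.36 ± 0.37 (limma adjusted p = 0.0957), 1.09 without array 1 and 1.03 after the neighbourhood correction. It did not pass there or in the fit on all arrays, and did with array weights (1.61, adjusted p = 0.00980) and with day as a random block (1.44, adjusted p = 0.0446). Those settings called more of all features, 227 positive and 353 negative with array weights and 103 and 154 with the random block. The fit on all arrays called 44 and 83. The other SF3a genes did not share this side clearly, with PRP11 at −0.08 and PRP21 at −0.13 as deposited. The SF3b genes HSH155, CUS1 and HSH49 lay at −0.28, −0.14 and 0.48, MSL1 (the partner of Lea1) at −0.06 and the U2-loading helicase gene PRP5 at 0.35.

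Genes of the tri-snRNP had medians of 0.0024 turned and −0.06 as deposited over 15 features, against 0.04 and 0.02 for all features. PRP8 encodes the U5 protein at the catalytic core of the spliceosome. Its ratio lay at −1.35, −1.37 and −2.97 on arrays 1, 4 and 6 and at −4.52, −2.32 and −0.26 on arrays 2, 3 and 5. All 6 values were negative, from near 0 on array 5 to far below it on array 2. The shift as deposited was the widest of all members, −2.13 ± 0.49, but missed the threshold (limma adjusted p = 0.0566). It was −2.27 without array 1 (adjusted p = 0.114) and −1.29 after the neighbourhood correction (adjusted p = 0.161), whereas it passed without array 5 (−2.66, adjusted p = 0.0190). It also passed with day as a random block (adjusted p = 0.0265), array weights (0.00452), equal spread of the arrays (0.0395), and without ratios of small whole numbers (0.0418). Over all features the fit on all arrays called 44 on the positive and 83 on the negative side. These were 227 and 353 with array weights, 103 and 154 with the random block, and 38 and 167 without array 5. The turned shift of PRP8 was 0.24 ± 0.49, well within its error. Of the other U5 genes, PRP6 was also negative on all 6 arrays as deposited, at −0.59 (limma adjusted p = 0.459). BRR2, the helicase gene that unwinds U4/U6, was at 0.10, and SNU114, the U5 GTPase gene, at 0.50 and 0.09 in its features.

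SNU13, whose protein binds U4 RNA and box C/D small nucleolar RNAs, had the smallest turned p among these genes. It lay at −0.20, −0.79 and −1.85 on arrays 1, 4 and 6 and at 0.03, 0.31 and 2.16 on arrays 2, 3 and 5. Arrays of either assignment did not overlap, with the widest values on arrays 5 and 6 of day 1. The turned shift was −0.89 ± 0.38 (limma adjusted p = 0.356), −0.24 after the neighbourhood correction. PRP4, a U4/U6 protein gene, was positive on all 6 turned arrays at 0.77 ± 0.36 (limma adjusted p = 0.397), but lay at −0.24 after the neighbourhood correction. Its partner PRP3 lay on the other side at −0.59. The U4/U6 gene PRP31 and the activation factor gene PRP38 had turned shifts of 0.19 and 0.07, and of 0.05 and −0.09, in their features. SNU66 was at 0.83 turned and −0.67 as deposited. PRP24, which reanneals U4 with U6, and PRP28, the helicase gene that displaces U1, were at −0.29 and −0.28 turned.

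Of the 10 Prp19 complex features, 4 had an unadjusted p under 0.05 as deposited (background 13.5%) and 1 in the turned reading (background 13.0%). Those as deposited were ISY1 on the positive side and SYF2, CLF1 and CEF1 feature 4275 on the negative side. ISY1 lay at 0.86, 1.89 and 1.13 on arrays 1, 4 and 6 and at 0.03, 0.66 and 2.38 on arrays 2, 3 and 5. Each value was positive, from close to 0 on array 2 to its highest on array 5, and the shift was 1.16 ± 0.37 (limma adjusted p = 0.159). It was 1.27 without array 1 and 0.67 after the neighbourhood correction. SYF2 lay at −0.60, −1.75 and −0.95 on arrays 1, 4 and 6 and at −1.80, −0.99 and −0.04 on arrays 2, 3 and 5, negative throughout (−1.02 ± 0.34, limma adjusted p = 0.184). Its shift was −1.15 without array 1 and −0.80 after the neighbourhood correction. CLF1, the complex's scaffold, was at −0.96 and CEF1, a Myb-related core subunit, at −0.73 and −0.56 in its features. None of these passed.

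PRP46, a WD-repeat subunit of the same complex, had the widest turned shift of its group at 1.66 ± 0.69 (limma adjusted p = 0.345). It lay at 2.60, 1.85 and 0.49 on arrays 1, 4 and 6 and at −5.71, 0.34 and 0.35 on arrays 2, 3 and 5. Array 2 lay far below every other array, and without it the shift was 0.65. It was 1.42 without array 1 and 0.45 after the neighbourhood correction, and within days it was 0.07 (day 1) and 1.13 (day 4). The namesake ubiquitin ligase gene PRP19 lay on opposite sides in its features, at −0.26 and 0.47. PRP45 and SYF1 were at −0.11 and −0.13 turned. The group median was −0.02 turned and −0.04 as deposited.

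**Figure D4:**
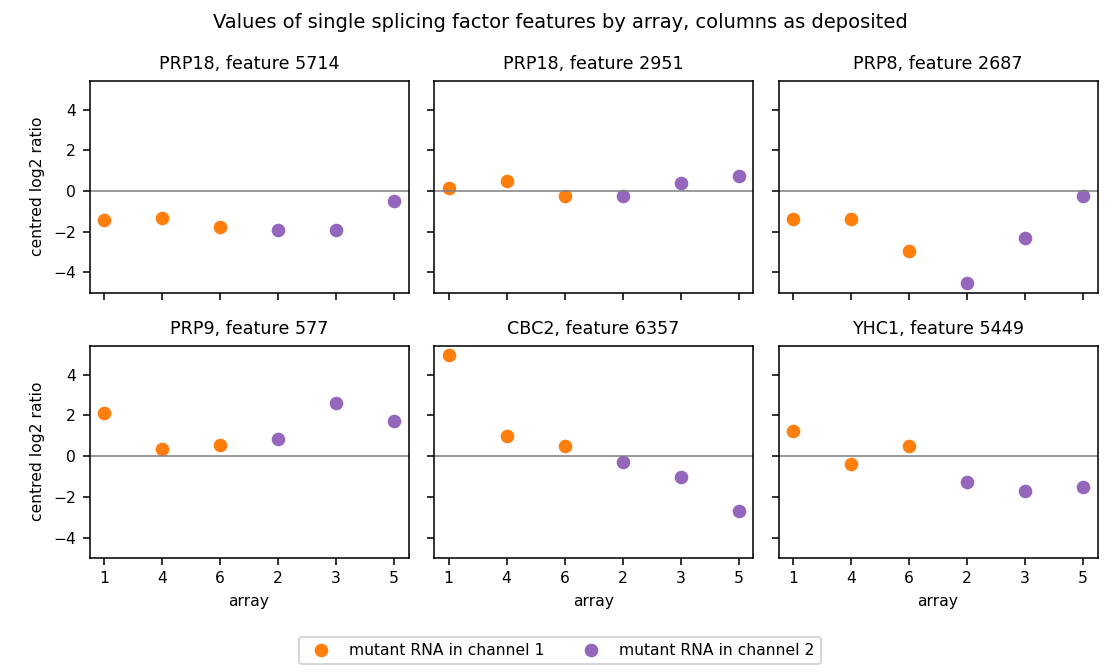
Centred log2 ratio (as deposited) of 6 splicing factor features on each array, 1 point per array, orange where the mutant RNA was in channel 1 (arrays 1, 4 and 6) and purple where it was in channel 2 (arrays 2, 3 and 5). PRP18 feature 5714 is below 0 on all 6 arrays while feature 2951 of the same gene scatters about 0, and CBC2 and YHC1 differ by channel assignment.

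PRP18, a factor of the second step of splicing, gave the 1 passing feature. Feature 5714 lay at −1.44, −1.31 and −1.78 on arrays 1, 4 and 6 and at −1.93, −1.90 and −0.49 on arrays 2, 3 and 5. The values were negative on all 6 arrays and lay close together, apart from array 5. The shift as deposited was −1.47 ± 0.33 (limma adjusted p = 0.0496), and turned it was −0.03. The second PRP18 feature, 2951, lay at 0.14, 0.51 and −0.24 on arrays 1, 4 and 6 and at −0.26, 0.41 and 0.74 on arrays 2, 3 and 5, a shift of 0.22 ± 0.31 (adjusted p = 0.868). The features of this gene thus disagreed in sign on 4 of 6 arrays, and with them averaged the gene was at −0.63 (adjusted p = 0.459). Feature 5714 no longer passed without array 1 (−1.49, adjusted p = 0.133), 2, 3, 4 or 6, or after the neighbourhood correction (−0.93, adjusted p = 0.190). With 1 array left out its shift ran from −1.71 to −1.35. Over all features, 16 were called positive and 29 negative without array 1, and 30 and 37 without array 2. These were 0 and 6 without array 3, 0 and 0 without array 4 or 6, and 1 and 2 after the correction. The fit on all arrays called 44 and 83.

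The helicases that drive and end catalysis are encoded by PRP2, PRP16, PRP22 and PRP43. None of their features passed, and their turned shifts ran from −0.19 for PRP16 feature 4482 to 0.61 for PRP2. The smallest turned p of the group was that of PRP43 feature 5242, which lay at −0.60, −0.88 and 0.59 on arrays 1, 4 and 6 and at −0.30, −1.41 and −2.19 on arrays 2, 3 and 5 (0.50 ± 0.36, limma adjusted p = 0.634). Its assignments overlapped. As deposited this feature was at −0.80 and feature 2520 of the same gene at 0.30. By identifier, each PRP43 feature stands next to a feature of CWC23, 5242 beside 5243 and 2520 beside 2521. CWC23 lay at −2.50 and 0.55 there, the same sides as its neighbour, and after the neighbourhood correction PRP43 feature 5242 was at 0.35 as deposited. SLU7, a second-step factor gene, was at 0.19 turned and 0.35 as deposited, with all 6 values equal to that of another feature on the same array.

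Member genes of the Sm and Lsm rings lay mostly on 1 side in the turned reading and on both sides as deposited. Of 13 features, 11 were on the positive side once turned (background 53.5%), with a median of 0.37 against 0.04 for all features. As deposited 6 were positive and 7 negative, with a median of −0.17. The exceptions once turned were LSM6 and LSM4. Ring genes outside the members, SMX2, SMX3 and LSM5, are not in these counts. Their turned shifts were 0.19, −0.48 and 0.70, and as deposited they lay at 1.17, 1.10 and 0.54. SMX2 was positive on all 6 arrays as deposited (limma adjusted p = 0.0882). By array the group median was 0.30, 0.38 and 0.08 on arrays 1, 4 and 6 and −0.88, −0.51 and 0.13 on arrays 2, 3 and 5. Array 5 went against the other 5 once turned, so the turned median was −0.02 within day 1 and 0.41 within day 4. It stayed positive when any 1 array was left out, between 0.20 and 0.59. It was 0.09 with array 1 turned over, and after the neighbourhood correction it was 0.31. After that correction 9 of the 13 features were positive, as were 49 of all 73 members, and the branch point median was 0.35. The corrected median was 0.16 over all members and 0.03 over all features. How many of all features were positive after the correction was not counted. No feature of the group passed in either reading.

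**Figure D5:**
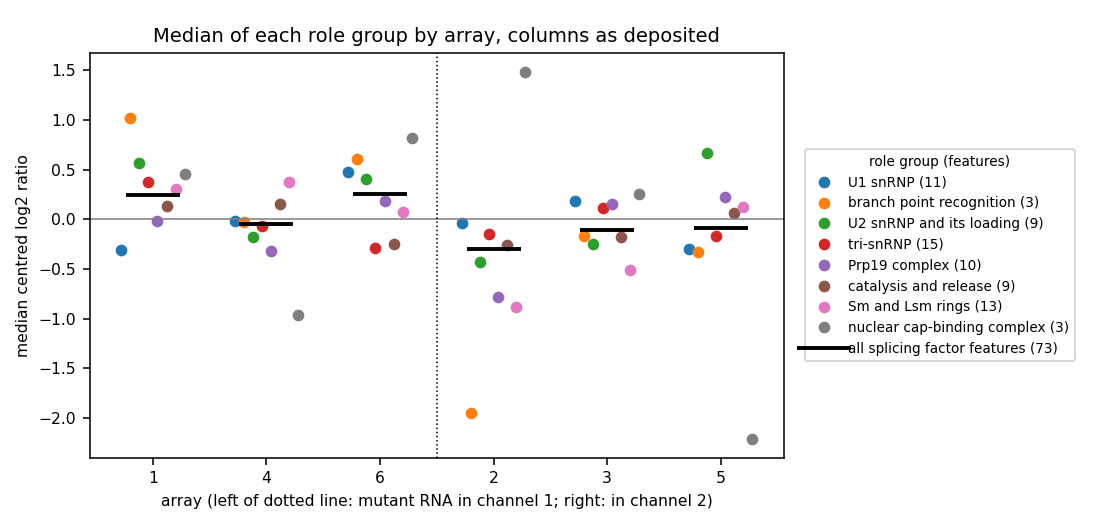
Median centred log2 ratio (as deposited) of each role group on each array, with the number of features in brackets. Coloured points are role groups and black bars the median of all 73 features. Arrays with the mutant RNA in channel 1 (1, 4 and 6) stand left of the dotted line. The Sm and Lsm rings lie between 0.08 and 0.38 on the left and at −0.88, −0.51 and 0.13 on arrays 2, 3 and 5, and the groups of 3 features scatter most.

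LSM7, a ring subunit gene, was positive on all turned arrays. It lay at 3.91, 1.33 and 0.14 on arrays 1, 4 and 6 and at −0.18, −0.70 and −1.39 on arrays 2, 3 and 5. Array 1 was far above the rest, and the turned shift of 1.27 ± 0.45 (limma adjusted p = 0.291) came to 0.75 without array 1 and 0.58 after the neighbourhood correction. On 3 arrays the LSM7 value equalled that of another feature, and LSM7 was not fitted without repeated values. LSM6, of the same ring, ran the opposite way at −1.41, −0.84 and −1.05 on arrays 1, 4 and 6 and 0.38, 1.22 and 0.32 on arrays 2, 3 and 5. The arrays of either assignment did not overlap, with a turned shift of −0.87 ± 0.31 (limma adjusted p = 0.291), −0.79 without array 1 and −0.30 after the neighbourhood correction. The Lsm2-8 ring sits on the end of U6 RNA, and the other members from it, LSM2, LSM3, LSM4 and LSM8, had turned shifts of 0.50, 0.54, −0.12 and 0.19.

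Of the Sm genes, SME1 had the widest turned shift, 1.40 ± 0.53 (limma adjusted p = 0.306), with 1.49, 0.44 and −1.57 on arrays 1, 4 and 6 and −2.92, −0.51 and −4.60 on arrays 2, 3 and 5. Arrays 2 and 5 were far below the rest, and array 6 lay below array 3, so the assignments overlapped. After the neighbourhood correction SME1 was at 0.34, below the SMD1 features at 0.49 and 0.95. Uncorrected, SMD1 had turned shifts of 0.36 and 0.68, SMD3 of 0.37 and 0.22, SMD2 of 0.44 and SMB1 of 0.07. As deposited, SMD3 feature 4524 had the smallest p of the group. It lay at −1.20, −0.25 and −1.16 on arrays 1, 4 and 6 and at −2.14, −1.96 and 0.19 on arrays 2, 3 and 5 (−1.09 ± 0.38, limma adjusted p = 0.197). Its shift was −1.0045 without array 1 and −0.97 after the neighbourhood correction. The other SMD3 feature, 3372, was at −0.17.

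The nuclear cap-binding complex binds the 5′ cap of new transcripts and aids U1 recruitment. The difference between its 2 subunit genes was not tested. CBC2, the small subunit gene, lay at 4.96, 0.99 and 0.51 on arrays 1, 4 and 6 and at −0.27, −1.02 and −2.72 on arrays 2, 3 and 5. The arrays of either assignment did not overlap, and array 1 was the highest by far. Its turned shift, 1.74 ± 0.55 (limma adjusted p = 0.266), had the smallest p of all members in that reading, and was 1.04 without array 1 (adjusted p = 0.558) and 0.53 after the neighbourhood correction. STO1, the large subunit gene, had turned shifts of −0.62 ± 0.48 and 0.10 ± 0.47 in its features, neither of which passed. As deposited CBC2 was at 0.41 and STO1 at 0.35 and −0.05. STO1 feature 4251 lay at −0.91, −0.97 and 1.08 on arrays 1, 4 and 6 and at 2.13, 1.97 and −1.20 on arrays 2, 3 and 5, so arrays 5 and 6 of day 1 stood on the opposite sides to the other arrays of their assignment.

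Where a gene had 2 features, they agreed only in part. Of the 13 genes, 7 had both on 1 side in the turned reading (53.8%) and 5 as deposited (38.5%). Over all 1100 genes with 2 features these shares were 65.3% and 56.6%. Across those 1100 genes the correlation of the features was 0.624 turned and 0.039 as deposited. Over the 13 splicing factor genes it was 0.322 and 0.071, a description over few genes. The genes on 1 side in the turned reading were MSL5, PRP31, PRP43, SMD1 and SMD3 (positive) and PRP18 and SNU71 (negative), and the largest gap was in SNU114, at −0.14 and 0.72. As deposited the feature of the higher identifier was the lower one in 10 of 13 genes (76.9%), against 71.0% of all 1100.

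Of the members, 5 genes are themselves interrupted by an intron, so their own pre-mRNAs are substrates of the machinery. They are LSM2, LSM7, MUD1, SMD2 and STO1, and this split was made after their values were seen. Of their 6 features, 4 were positive turned (background 53.5%) and 5 as deposited (background 51.5%), and 2 of the 6 are of STO1. These are too few to describe a tendency. LSM2 lay at 0.30, 1.53 and 0.72 on arrays 1, 4 and 6 and at −1.56, −0.04 and 1.12 on arrays 2, 3 and 5, and SMD2 at 1.29, 0.37 and 0.08 and at −0.88, −0.62 and 0.62. In both, array 5 overlapped the arrays of the other assignment. MUD1 stayed between −0.11 and 0.88 on all arrays, and none of these features passed.

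A second list of 38 spliceosome and splicing-linked genes held no member, and 37 of them were found on 45 features. In the turned reading 0 passed (background 0.013%), 24 lay on the positive side (53.3%, background 53.5%) and 6 had an unadjusted limma p under 0.05 (13.3%, background 13.0%). The smallest p values were those of SNT309 (1.19 ± 0.34, limma adjusted p = 0.254), a Prp19 complex subunit gene, HUB1 (1.01), a ubiquitin-like modifier gene, and CWC25 (−1.44), a first-step factor gene. As deposited 1 passed (2.22%, background 1.65%), CWC23 feature 5243. It lay at −2.35, −1.35 and −2.89 on arrays 1, 4 and 6 and at −3.94, −2.72 and −1.75 on arrays 2, 3 and 5, negative throughout (−2.50 ± 0.37, limma adjusted p = 0.0111). It was −2.46 without array 1 and −1.54 after the neighbourhood correction, and the other feature of the gene lay on the opposite side. IST3, a subunit gene of the RES complex, at −1.59 (limma adjusted p = 0.0535), and SPP381, a tri-snRNP gene, at 1.30 (adjusted p = 0.0794), did not pass. Of the 6 values of IST3, 5 equalled that of another feature on the same array, as did 3 of CWC23 feature 5243. Over all features, 15.9% had at least 1 such repeated value. On the negative side as deposited, 9 of these 45 features had an unadjusted p under 0.05 (background 7.33%), and 6 of the 44 with values on every array were negative on all of them (13.6%, background 4.03%). The members' counts by the same rules were 8 of 73 and 4 of 73.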

How the data were processed

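The authors deposited 1 value per feature and array, which is a log10 ratio of the 2 channels. The scale was read from the values, and no source used here gives image analysis, background correction, filters or the numerator. Of 7684 entries, 1 had no numeric identifier and was dropped, and 3 repeats of an identifier were averaged. Values were put on the log2 scale, and the median of every array was set to 0. The platform annotation named 6695 features, and the 60 members all carry the same symbol in the R64 gene table. A limma fit (lmFit and eBayes, limma 3.58.1, R 4.3.3) over 7680 features held 2 terms, the labelled mutant channel and the column sign, and asked for values on at least 4 arrays and 2 of each assignment. Tests are two-sided. Signal over background is unknown, and the number of arrays limits the precision. The fit was tested on simulated data with noise independent between features. Of 200 features given a turned shift, 0% passed at 1 log2 unit, 71% at 2 and 93% at 3.

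Members, role groups and the second gene list were chosen with earlier results of these data known, and the trend with identifier was looked at after the values were seen. Values on all arrays are given for passing members, for the smallest p of each role group and for the 5 smallest p overall in each reading. SME1, PRP4, LSM2, SMD2 and STO1 were added to these after their values were seen. Of the second list, features that pass and the 3 with the smallest p in each reading are given by their shifts, with array values for the 1 that passed. Shifts of its ring genes SMX2, SMX3 and LSM5 were added after their values were seen. Alternatives were leaving out each array, no centring, equal spread, complete features, the neighbourhood correction (features 1, 2, 20 and 21 identifiers away), no repeated values, no values equal to a ratio of small integers (terms multiplying to under 10000000), 1 coefficient, day as fixed or random block, array weights, array 1 turned over, and averaging features of a gene.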

Additional observations from a re-analysis of the deposited data

Results flagged for a closer look

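Each reported feature and median was looked at over its 6 arrays in both readings, 66 sets in all, for an array whose gap to the nearest other exceeded Dixon's critical value for 6 samples. Chance flags about 1 set in 20, and 2 were found. PRP46 feature 7140 lay at −5.71 on array 2 as deposited, against 0.34 to 2.60 on the other arrays. LSM7 feature 6087 lay at 3.91 on array 1 in the turned reading, against 0.14 to 1.39 on the others.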

How the results depend on the processing

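Each ratio already compares both RNAs within an array, and all arrays belong to the same group, so no further pairing by replicate number was made. The labelled day was also used as a block, and 0 members passed turned with it fixed or random. No background correction or filter on dim probes could be tried, since no intensities were used here, so signal over background limits each value to an unknown degree. The cause of the changes below was not tested. When arrays were not centred, the typical feature lay at −2.07 turned and −0.82 as deposited. The turned calls then came to 45 of 73 members, all on the negative side. Of all 7680 features, 4886 were called on that side and 1 on the positive side. The turned medians came to −2.02 (all members), −2.20 (U1), −1.61 (branch point), −1.99 (U2), −2.11 (tri-snRNP), −2.13 (Prp19), −2.06 (catalysis), −1.74 (Sm and Lsm) and −2.01 (cap binding). Those as deposited came to −0.8871 (all members), −0.99 (U1), −0.8876 (U2), −0.8888 (tri-snRNP), −0.87 (Prp19), −0.62 (catalysis) and −1.004 (Sm and Lsm). Turned shifts that changed sign there were −0.45 for PRP46, −0.83 for LSM7, −1.13 for YHC1, −1.01 for LEA1, −1.44 for MSL5, −1.61 for PRP43 and −0.37 for CBC2.

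As deposited, the single call (PRP18) became 0 without centring, on complete features, after the neighbourhood correction, without repeated values, with 1 coefficient, with array 1 turned over and with features averaged. It became 2 at equal spread and without ratios of small whole numbers, 3 with day as a random block and 5 with array weights. Over all 7680 features the fit on all arrays called 44 on the positive and 83 on the negative side. These were 64 and 103 at equal spread, and 67 and 99 of 6418 without ratios of small whole numbers. With day as a random block they were 103 and 154, and with array weights 227 and 353. Where the member count became 0, they were 0 and 2 without centring, 1 and 2 after the neighbourhood correction and 1 and 1 with array 1 turned over. On complete features they were 34 and 81 of 7592, and without repeated values 10 and 20 of 7051. They were 24 and 66 with 1 coefficient, and 20 and 49 of 6568 with features averaged. Leaving out 1 array gave 0 to 3 member calls, 3 of them without array 5 and 0 without any other. The neighbourhood correction moved the turned medians of U1 to 0.23 and catalysis to 0.26, and day as a fixed block moved catalysis to −0.19. Turning array 1 over moved the medians as deposited to −0.48 (Prp19) and −0.28 (catalysis). The catalysis median as deposited was −0.0901 without repeated values, −0.17 with features averaged, and −0.19 to 0.22 with 1 array left out, −0.19 without array 1 and 0.02 without array 5. Turning array 1 over put LSM7 at −0.0297 turned and CBC2 at −1.25 as deposited, and CBC2 as deposited was also negative without array 1 (−0.30) and without centring (−0.43). Its range with 1 array left out was −0.30 to 0.82. Of the other values, 290 medians moved by no more than the SD between arrays, and 278 member shifts kept their sign and call. This rule is loose and gives no measure of stability. The SD of the turned cap-binding median was 1.33, and with arrays centred that median ran from −0.41 to 0.81. Only 1 member passed in the fit on all arrays, so most calls could change only by a new pass.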
